A study of Mus musculus with 2 samples.

Results

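The 38 genes described here drive or accompany the cell division cycle, and their transcripts were counted in long-read RNA sequencing of the adrenal gland. They were chosen by name: every transcript model listed under 1 of these 38 gene symbols was taken, whatever its class. All 38 had at least 1 read, out of 18177 annotated genes with reads, and 37 had a read in replicate 1 and 37 in replicate 2. The tissue came from male mice of the F1 hybrid B6CASTF1/J (a C57BL/6 by CAST cross), aged 14 days, with no treatment or engineered allele named. There was a single group of 2 libraries, called replicates 1 and 2, so no conditions could be compared. The labels number the libraries as biological replicates 1 and 2, but also name a set of 3 males and give both the same donor. They therefore do not show that the libraries came from separate animals. Differences between the libraries may be technical, and p-values cover counting error only.

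Dividing cells pass through G1, S, G2 and M. In G1, D-type cyclins with Cdk4 and cyclin E with Cdk2 phosphorylate the retinoblastoma family, which releases E2F factors that switch on replication genes. In S phase the Mcm helicase, loaded on origins beforehand, unwinds DNA for copying, and the genes of mitosis are switched on later, when cyclin A and cyclin B activate Cdk1. In the postnatal adrenal gland of the mouse, dividing cells are known mainly from the outer cortex and its capsule, which renew the steroid-producing zones.

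Replicate 1 had 964815 reads and replicate 2 had 985101 reads once spike-ins were left out. Levels are in CPM, reads per 1000000 of these. Since a count of 0 allows up to 3 reads, an unread gene could lie at up to 3.11 CPM in replicate 1 and up to 3.05 CPM in replicate 2. Adrenal cortex markers summed to 39447 CPM in replicate 1 and 39293 CPM in replicate 2 and chromaffin markers to 8208 and 7975 CPM, with all 7 and all 6 genes read. The libraries differed in markers of other tissues. The 8 liver genes summed to 754 CPM in replicate 1 and 15655 CPM in replicate 2, and all 8 were called higher in replicate 2. The 12 lymph node and lymphocyte genes summed to 828 CPM in replicate 1 and 170 CPM in replicate 2, with 8 of the 10 tested called higher in replicate 1. Erythroid genes summed to 14576 and 14495 CPM, with 7 of 8 read, fibroblast and capsule genes to 2022 and 1258 CPM, with 6 of 6 read, and endothelial genes to 249 and 148 CPM, with 5 of 5 read, in replicates 1 and 2. These are mixed-cell samples, in which fewer cells of a type and less RNA per cell cannot be told apart.

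The 38 genes together had 1707 reads in replicate 1 and 1868 reads in replicate 2, or 1833 ± 89.8 CPM (SD, n = 2). G1 genes held the largest share of any role and summed to 574 CPM in replicate 1, against 555 CPM in replicate 2. Reads carry no molecular identifiers in these counts, so copies of 1 molecule cannot be told apart. Each long read was counted as 1 cDNA, so counts were not divided by length, although long cDNAs may be read less often. By this measure of reads per gene 3 members lay above 100 CPM, 30 between 10 and 100 CPM, and 5 below 10 CPM. With the members ordered by mean level, the 2 libraries' ranges overlapped in 29 of the 37 pairs of neighbours, so most of the order is not resolved. A gap between ranges of 2 values leaves out counting error, so it does not show that the other pairs are resolved.

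Among the G1 genes, Ccnd3, a D-type cyclin, was the most abundant member, with 206 reads in replicate 1 and 244 in replicate 2 (231 ± 24.2 CPM). Cdk4, the kinase partner of the D-type cyclins, came next with 185 and 175 reads (185 ± 9.97 CPM), and its range lay below that of Ccnd3. Ccnd2 had 67 and 66 reads (68.2 ± 1.73 CPM), and Ccnd1 had 49 and 21 reads (36.1 ± 20.8 CPM). The D-type cyclins were thus in the same order in both libraries, with no overlap between their ranges. Cdk2, which acts with E- and A-type cyclins, had 32 and 22 reads (27.7 ± 7.66 CPM), and Ccne1, cyclin E1, had 15 and 19 reads (17.4 ± 2.64 CPM). Of the inhibitors, Cdkn1a, the Cdk inhibitor induced by p53, had 42 reads in replicate 1 and 25 in replicate 2 (34.5 ± 12.8 CPM), whereas Cdkn1b, an inhibitor typical of resting cells, had 1 read in each library (1.03 ± 0.0151 CPM). Models on the strand opposite Cdkn1b held 27 and 36 reads that are not in this level, and how strand entered the counts is not given in the sources used here, so the level of Cdkn1b is uncertain.

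The replication genes summed to 461 CPM in replicate 1 and 494 CPM in replicate 2. All 6 subunits of the Mcm2 to Mcm7 helicase were read, at unequal levels. Mcm2 was highest, with 122 reads in replicate 1 and 137 in replicate 2 (133 ± 8.93 CPM), followed by Mcm6 with 82 and 95 reads (90.7 ± 8.09 CPM). Mcm4 was lowest, with 21 and 24 reads (23.1 ± 1.84 CPM), and neither library's value came near those of Mcm2. Mcm7 averaged 67.8 ± 9.70 CPM, Mcm3 48.7 ± 4.36 CPM and Mcm5 43.0 ± 8.07 CPM. Pcna, the sliding clamp that tethers polymerases to DNA, had 68 and 72 reads (71.8 ± 1.84 CPM). Of the genes that supply nucleotides, Rrm2, the small subunit of ribonucleotide reductase, had 66 reads in replicate 1 and 99 in replicate 2 (84.5 ± 22.7 CPM). Its large-subunit partner Rrm1 had 51 and 56 reads (54.9 ± 2.82 CPM). Tyms, which makes thymidylate, averaged 40.0 ± 5.21 CPM, and Tk1, which salvages thymidine, 27.7 ± 5.40 CPM.

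The genes of mitotic entry and exit averaged between 7.69 and 73.3 CPM. Ccnb2 and Ccnb1, the B-type cyclins of mitotic entry, averaged 73.3 ± 8.35 and 46.6 ± 4.39 CPM, with 65 and 42 reads in replicate 1 and 78 and 49 in replicate 2. Their kinase Cdk1 had 29 reads in replicate 1 and 39 in replicate 2 (34.8 ± 6.74 CPM), and Ccna2, cyclin A2, had 22 and 41 reads (32.2 ± 13.3 CPM). Cdc20, which activates the anaphase-promoting complex, was highest of the kinase, checkpoint and exit group, with 41 and 51 reads (47.1 ± 6.56 CPM). Ube2c, the ubiquitin-conjugating enzyme of that complex, averaged 22.0 ± 6.20 CPM. Birc5 and Aurkb, partners in the chromosomal passenger complex, averaged 35.9 ± 5.27 and 23.6 ± 3.25 CPM. The polo kinase Plk1 averaged 18.0 ± 3.89 CPM, and the spindle checkpoint genes Bub1b and Bub1 16.9 ± 1.93 and 7.69 ± 0.612 CPM. Aurka, the centrosomal Aurora kinase, had 17 reads in replicate 1 and 6 in replicate 2 (11.9 ± 8.15 CPM).

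The group of chromosome, centromere and spindle proteins held both abundant and scarce members. Hmgb2, a chromatin protein, had 78 reads in replicate 1 and 85 in replicate 2 (83.6 ± 3.85 CPM), Stmn1, which destabilises microtubules, had 34 and 49 (42.5 ± 10.3 CPM), and Cenpa, the centromeric histone H3 variant, had 37 and 27 (32.9 ± 7.74 CPM). Top2a, the topoisomerase that untangles sister chromatids, had 7 and 16 reads (11.7 ± 6.35 CPM). Mki67, which encodes the proliferation marker Ki-67, had only 2 reads in replicate 1 and 9 in replicate 2 (5.60 ± 4.99 CPM). The kinetochore genes Cenpe, with 1 and 0 reads, and Cenpf, with 0 and 2 reads, were at or below the limit of detection.

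**Figure D1:**
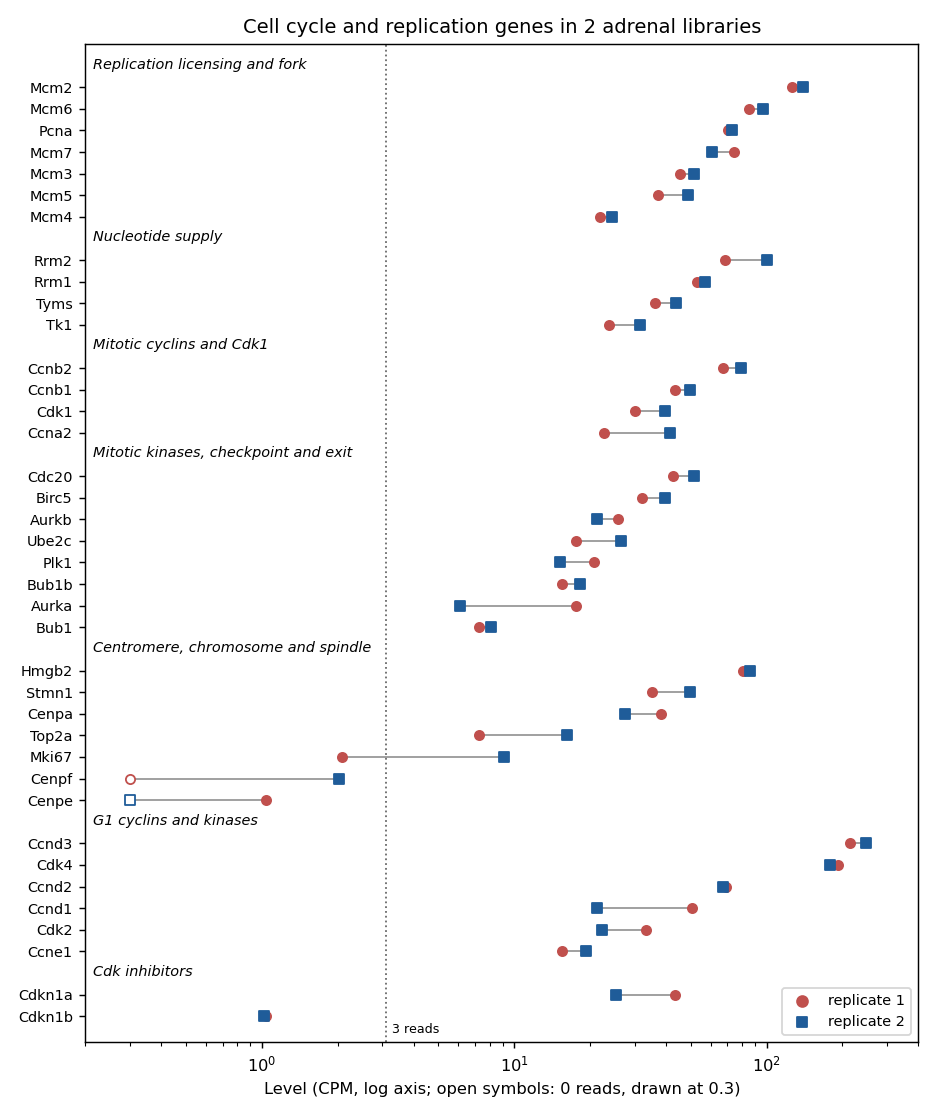
Level of each of the 38 genes in CPM on a log axis, grouped by role, with replicate 1 as circles and replicate 2 as squares joined by a line. Ccnd3, Cdk4 and Mcm2 lie above 100 CPM in both libraries, while Cdkn1b, Cenpe and Cenpf lie left of the dotted line at 3 reads in both.

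Between the libraries, 1 of the 35 members with at least 10 reads differed in level, against 9.17% of all 11094 genes tested. The test was a two-sided exact binomial test against the libraries' share of reads, with Benjamini-Hochberg adjustment over all 11094 genes. It covers counting error only and compares these libraries. Ccnd1 was higher in replicate 1, 50.8 against 21.3 CPM in replicate 2, which is 2.38-fold (95% Clopper-Pearson interval 1.40 to 4.18; exact binomial test, adjusted p = 0.0121). Of all genes tested 4.81% were called higher in replicate 1 and 4.35% higher in replicate 2. With TMM scaling, which centres most genes, 23.3% of calls were higher in replicate 1 and 76.7% in replicate 2, in place of 52.5% and 47.5%, and the median log2 ratio over all genes moved by -0.16. Of the calls 30.0% were higher in replicate 1 and 70.0% in replicate 2 with median-of-ratios size factors, and 62.7% and 37.3% with the spike-ins as the scale.

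The Ccnd1 call was lost without its single-exon reads. Reads of a single exon made up 19 of its 49 reads in replicate 1 (38.8%) and 7 of 21 in replicate 2 (33.3%). The models that held all 26 lay within the last exon of Ccnd1-201. These models span 1 to 818 bases, so their ends need not be those of the reads. In models with more than 1 exon the log2 ratio was 1.04, against 1.23 with all reads, with an adjusted p of 0.162 by the same exact binomial test. In known models alone it was 1.00, with an adjusted p of 0.284. Both alternatives count fewer reads, and whether that lost the call was not tested. LTO1, which overlaps Ccnd1 on the opposite strand, had 50 reads in replicate 1 and 27 in replicate 2, and 3 of the 6 fibroblast and capsule genes and 1 of the 5 endothelial genes were also called higher in replicate 1. The other 3 fibroblast and capsule genes, Col1a2, Lum and Pdgfra, had log2 ratios of -0.02, -0.19 and -0.76 and were not called. Their part in the result was not tested.

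A further 4 of the 5 members with an unadjusted p under 0.05 did not pass after adjustment. Aurka, with 17.6 CPM in replicate 1 against 6.09 CPM in replicate 2, had a ratio of 2.89 (interval 1.09 to 8.96; exact binomial test, adjusted p = 0.149). Cdkn1a, at 43.5 and 25.4 CPM, had a ratio of 1.72 (1.02 to 2.94; exact binomial test, adjusted p = 0.212). Ccna2, at 22.8 and 41.6 CPM, had a ratio of 0.548 (0.311 to 0.941; exact binomial test, adjusted p = 0.156). Rrm2, at 68.4 and 100 CPM, had a ratio of 0.681 (0.491 to 0.939; exact binomial test, adjusted p = 0.121), and passed with TMM scaling at an adjusted p of 0.0260. A tested member had a median of 70.0 reads over both libraries. At that number the smallest splits that would be called after adjustment are 47 reads in replicate 1 against 23 in replicate 2, a ratio of 2.09, and 22 against 48, a ratio of 0.468.

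Most members leaned the same way. Of the 35 tested, 10 had a ratio above 1 and 25 a ratio below 1, which is 71.4% lower in replicate 1, against 36.8% of all genes tested. Their median log2 ratio, replicate 1 over replicate 2, was -0.18, against 0.15 over all genes tested. The roles did not all lean alike. The 30 members of S, G2 and M phases summed to 1150 CPM in replicate 1, against 1315 CPM in replicate 2, which is 0.875-fold. Of the 28 tested, 5 were higher in replicate 1 and 23 lower, with a median log2 ratio of -0.21. The G1 genes and inhibitors summed to 619 and 582 CPM, and 5 of 7 were higher in replicate 1, with a median of 0.11. Nucleotide supply genes summed to 181 CPM in replicate 1, against 232 CPM in replicate 2, and mitotic cyclins with Cdk1 at 164 and 210 CPM, with all 4 genes of each lower in replicate 1. These are descriptions of a list, since no member of S, G2 or M phase passed the test. Most lists of other genes of these phases, given below, had a positive median. The liver and lymphocyte markers given above moved between the same libraries, and their part in the lean was not tested.

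**Figure D2:**
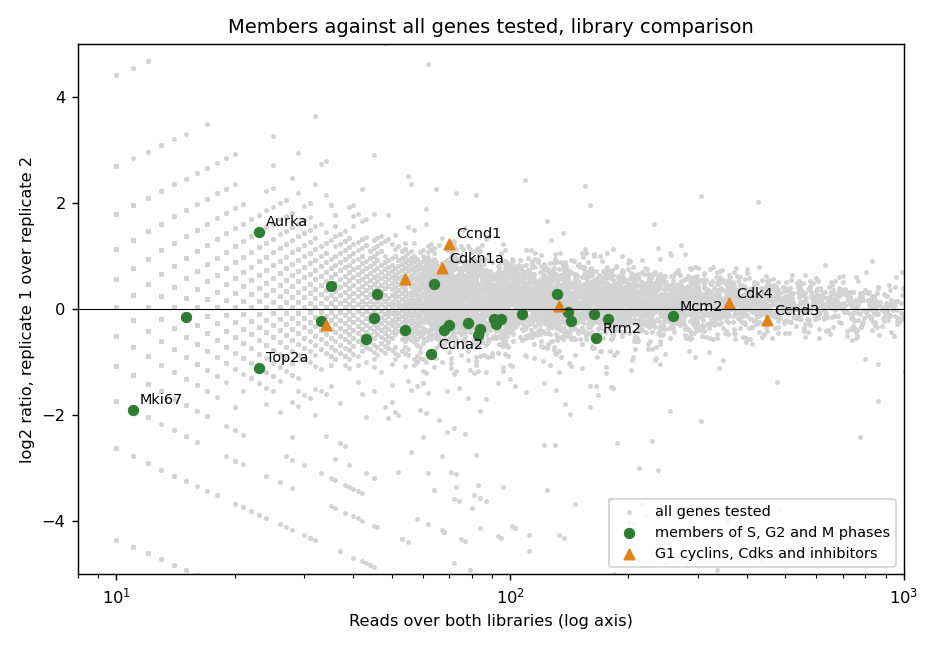
log2 ratio of replicate 1 over replicate 2 against reads over both libraries (log axis), for 11094 genes tested (grey, drawn up to 1000 reads) and for the members, split into S, G2 and M phase genes (green) and G1 genes with inhibitors (orange). Of the 28 green points 23 lie below 0, and Ccnd1 at 1.23 is the member that passed the test.

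Other genes of the same machinery had a median near that of all genes, and the gap between them and the members was not tested. Of 153 further cell cycle genes 151 had reads and 126 were tested. Their median log2 ratio was 0.16. Of the 126, 82 were higher in replicate 1 and 44 lower (34.9%, against 36.8% of all genes tested). By list, the median was 0.48 for spindle motors and cytokinesis, 0.25 for condensin, cohesin and separase, and 0.22 for checkpoint and kinetochore genes. It was 0.11 for helicase activation and fork proteins, and negative only for other nucleotide supply (-0.21) and other Cdk inhibitors (-0.31). In all 5 were called, 1 higher in replicate 1 and 4 lower, against 9.17% of all 11094 genes tested. Orc5, a subunit of the origin recognition complex, had 28 reads in replicate 1 and 10 in replicate 2 (adjusted p = 0.0375, exact binomial test). Cks2, a small Cdk-binding protein, had 18 and 42 reads (adjusted p = 0.0342), and Anapc13, a subunit of the anaphase-promoting complex, 154 and 244 reads (adjusted p = 5.46e-04). Cdkn1c, an imprinted Cdk inhibitor, had 683 and 863 reads (adjusted p = 9.22e-04, exact binomial test as for the others). No list held more than 1 call. Orc5 did not pass with TMM scaling (adjusted p = 0.0916), with median-of-ratios size factors (0.0907), in known models only (0.129), in models with more than 1 exon (0.0586) or with no minimum of reads (0.0610). At 792 ± 119 CPM Cdkn1c was far above every one of the 38 members and above the inhibitor Cdkn2c, at 79.0 ± 4.06 CPM.

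The leading genes of the other lists ranged from Cdca8, at 34.9 CPM, to Cdkn1c. The anaphase-promoting complex summed to 1143 CPM in replicate 1 and 1095 CPM in replicate 2, led by Anapc5 at 217 ± 27.8 CPM, and all 15 of its genes were tested. The checkpoint and kinetochore list was led by Zwint, at 242 ± 23.1 CPM, and Bub3, at 143 ± 16.6 CPM. Orc3, another subunit of the origin recognition complex, averaged 99.4 ± 8.69 CPM and Gmnn, the inhibitor of helicase loading, 42.1 ± 4.97 CPM. Of the fork proteins, the clamp loader subunit Rfc2 averaged 78.0 ± 1.15 CPM and the single-strand binding protein Rpa1 71.3 ± 2.58 CPM. Tfdp1, the dimer partner of E2F, averaged 110 ± 8.15 CPM and E2f4, a repressive E2F, 81.7 ± 19.3 CPM. Cks1b averaged 56.3 ± 9.32 CPM and Ccnh, the cyclin of the Cdk-activating kinase, 51.9 ± 14.5 CPM. Dctpp1 and Dut, which remove unwanted nucleotides, averaged 50.3 ± 0.740 and 40.0 ± 6.39 CPM. Securin, encoded by Pttg1, averaged 71.2 ± 14.2 CPM, the cohesin subunit Smc1a 47.2 ± 7.95 CPM, and the cytokinesis genes Racgap1 and Cdca8 35.4 ± 5.60 and 34.9 ± 7.77 CPM. None of these subunits, partners and enzymes passed the exact binomial test, although E2f4 and Ccnh had an unadjusted p under 0.05, at 0.0389 and 0.0470.

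Because each read carries its own splicing, the reads of each gene could be sorted into classes. Known reads follow an annotated transcript, incomplete matches follow part of one, new in catalog reads join annotated splice sites in a new way, new not in catalog reads use an unannotated site, and genomic reads lie in the gene without matching its splicing. Known reads were 79.5% of the members' reads in replicate 1 (95% Wilson interval 77.5 to 81.3) and 80.0% in replicate 2 (78.1 to 81.7), against 76.3% and 73.7% of the reads of all other annotated genes. Single-exon reads were 5.74% and 6.26% of the members' reads in replicates 1 and 2, against 11.2% and 14.5% for other genes. Among the 35 members with at least 10 reads the median known share was 84.4%, against 72.2% over 11094 genes. These genes were not matched for transcript length. Over coding genes the median was 84.7% for transcripts of up to 2000 bases, a class with 9 members. For 2000 to 4000 bases, with 21 members, it was 73.7%. In 33 of these 35 the most frequent full-splice form was an annotated one.

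**Figure D3:**
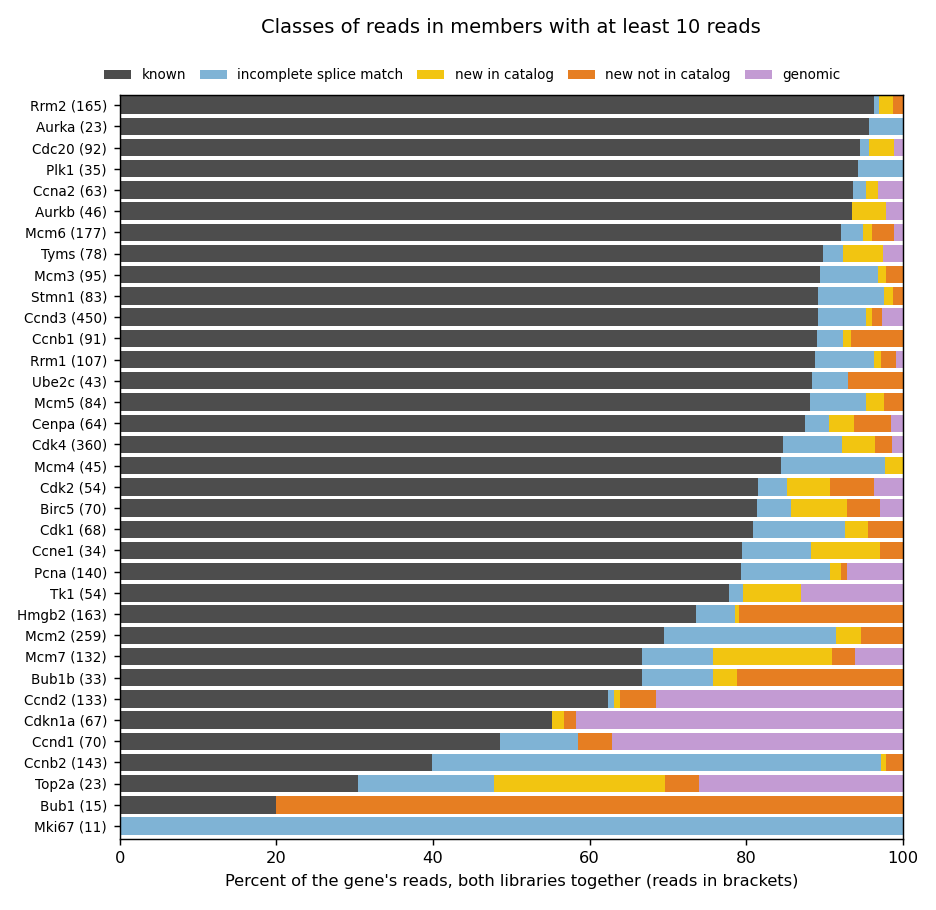
Percent of each member's reads in the 5 classes, both libraries together, for the 35 members with at least 10 reads (total in brackets), from the highest known share at the top. Rrm2 has 96.4% known reads, Ccnb2 39.9%, Bub1 20.0% and Mki67 none.

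No member was called for its splice forms. Of 22 members that had 20 or more full-splice reads per library, none passed the test of the share of its top form (two-sided Fisher's exact test, Benjamini-Hochberg adjustment), and 0 had an unadjusted p under 0.05. Over all genes 0.125% of 4817 were called. Likewise none of 31 members passed the test of the share of known reads, and 0 had an unadjusted p under 0.05, against 0.523% of 8215 genes called. The widest gap among those with at least 20 reads in each library was that of Cdkn1a, with 61.9% of reads known in replicate 1 and 44.0% in replicate 2 (p = 0.206 before adjustment, Fisher's exact test).

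The exceptions to the annotated forms fell on a few members, and the sequences below show the bases that differ. Bub1, on the minus strand of chromosome 2, had more reads on an unannotated form than on Bub1-201, with 4 reads in replicate 1 and 5 in replicate 2 against 1 and 2 reads. The unannotated form enters exon 8, at chr2:127821675-127821859, at an acceptor 3 bases further in. In Hmgb2, on chromosome 8, an acceptor 4 bases further into exon 2, at chr8:57512575-57512748 and before the coding part, was used by 17 reads in replicate 1 and 14 in replicate 2, against 55 and 65 reads for Hmgb2-201. The lines give the annotated joins in mm10 from the GENCODE M21 transcripts, with the bases left out by the other acceptor in capitals.
Bub1: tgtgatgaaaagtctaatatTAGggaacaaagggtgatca
Hmgb2: gcgctcgcagcagGTAGacagacgccgcgc

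In both lines the capitals end in AG, the bases at which introns usually end. Bub1b had 9 reads in replicate 1 and 13 in replicate 2 on Bub1b-201, and 2 and 3 reads on a form whose acceptor lies 3 bases upstream, in the annotated intron.

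In 3 other members a whole exon was in or out. Birc5-201, with 24 reads in replicate 1 and 33 in replicate 2, contains exon 2 at chr11:117849754-117849863, and 3 and 2 reads skipped its 110 bases. Cdk2 was divided between 2 annotated coding forms, Cdk2-201 with 12 reads in replicate 1 and 10 in replicate 2, and Cdk2-202 with 13 and 8 reads. Cdk2-202 carries an additional exon of 144 bases, exon 6, at chr10:128699976-128700119. The exon in question is in capitals between the 20 bases on either side, in transcript direction.
Birc5: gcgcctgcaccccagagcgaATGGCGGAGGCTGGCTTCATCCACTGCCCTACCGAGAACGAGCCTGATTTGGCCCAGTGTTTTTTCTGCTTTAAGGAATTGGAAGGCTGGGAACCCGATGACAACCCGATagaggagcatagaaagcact
Cdk2: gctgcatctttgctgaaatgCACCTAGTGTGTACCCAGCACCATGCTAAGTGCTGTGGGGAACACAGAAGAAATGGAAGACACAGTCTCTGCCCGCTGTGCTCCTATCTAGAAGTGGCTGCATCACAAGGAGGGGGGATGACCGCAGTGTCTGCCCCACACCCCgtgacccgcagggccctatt

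Cenpa had more reads on a transcript that the annotation marks as a target of nonsense-mediated decay than on the coding one. Cenpa-202, the decay form, had 20 reads in replicate 1 and 12 in replicate 2, and the coding form Cenpa-205 had 11 and 10 reads. In Cenpa-202 exon 2, of 137 bases at chr5:30669692-30669828, holds a stop codon after 41 coding bases. The line runs from the end of exon 1 to that stop codon, in capitals. The top form's share, 55.6% in replicate 1 and 48.0% in replicate 2, gave no call between the libraries (adjusted p = 1.00, Fisher's exact test).
Cenpa: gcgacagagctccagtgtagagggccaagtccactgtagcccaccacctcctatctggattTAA

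Mcm5 was spread over 3 annotated coding forms, with 15 reads in replicate 1 and 14 in replicate 2 on Mcm5-205, 9 and 17 on Mcm5-201, and 8 and 11 on Mcm5-203. Mcm7 had 47 and 40 reads on Mcm7-201, and 7 and 5 reads on an unannotated chain of annotated splice sites with another first exon, and a further chain of that kind had 4 and 0 reads. Cdk4 was mostly Cdk4-201, with 152 and 140 reads, beside 5 and 5 reads on Cdk4-207, annotated as a retained intron. Mcm3-203, a single-exon retained-intron transcript, had 6 and 4 reads against 33 and 42 on Mcm3-201. By contrast Rrm2, Rrm1, Pcna, Ccna2 and Stmn1 had over 95% of full-splice reads on 1 form in each library. The smaller annotated coding forms were Ccnd2-204, with 3 reads in replicate 1 and 2 in replicate 2, Mcm6-203, with 2 and 2, and Ccnd3-215, with 1 and 2. Cdk4 had another retained-intron form, Cdk4-209, with 1 and 2 reads, and unannotated chains with 5 and 2, 2 and 2, and 1 and 2 reads. Unannotated chains had 2 and 1 reads in Ccnb1 and in Ccnd1, 2 and 2 reads in Tyms, and, on each of 2 chains, 1 and 2 reads in Mcm2. The main form was the coding transcript numbered 201 in Aurkb, Ccna2, Ccnb1, Ccnd1, Ccnd2, Ccne1, Cdc20, Cdk1, Cdkn1a, Mcm4, Mcm6, Pcna, Plk1, Rrm1, Rrm2, Stmn1, Tk1, Top2a and Tyms, from 5 and 2 reads for Top2a-201 to 75 and 84 for Mcm6-201 and 64 and 95 for Rrm2-201. Ccnd1-201 had 23 and 11 reads. Top2a-201 held 83.3% of the 6 full-splice reads of its gene in replicate 1, but 28.6% of the 7 in replicate 2. Other main forms were Ccnd3-205 with 178 and 214 reads, Aurka-203 with 16 and 5, and Ube2c-202 with 16 and 22. Apart from Ccnb2-201 and Mcm2-201, described next, no other full-splice chain of a member reached 3 reads over both libraries.

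Incomplete reads were concentrated as well. Ccnb2 had 33 reads in replicate 1 and 48 in replicate 2 on a model of 2 exons, against 28 and 29 reads on the full Ccnb2-201 of 9 exons. All 81 of these reads shared the last intron of Ccnb2-201, and the model spans chr9:70407692-70409390. Ccnb2 was above Ccnb1 by all reads, but not by full-splice reads. These were 31 in replicate 1 and 30 in replicate 2 for Ccnb2, against 40 and 48 for Ccnb1. Mcm2 had 16 and 18 reads on a similar model of its last 2 exons, against 82 and 98 reads on Mcm2-201. Reads of 1 exon were 37.1% of the reads of Ccnd1, 33.1% of Ccnd2 and 41.8% of Cdkn1a, both libraries together, but 7.33% of those of Ccnd3. The models that held all 28 such reads of Cdkn1a, all 33 of Ccnd3 and 42 of 44 of Ccnd2 lay in the last exon of the main transcript.

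The known share was lower for longer transcripts. It is not a measure of completeness alone, since full-splice reads of new forms also count as not known. Over all coding genes the median known share was 84.7% for genes whose longest coding transcript has up to 2000 bases and 20.0% above 8000 bases. The Mki67 transcript has 10061 bases, and all of its reads, 2 in replicate 1 and 9 in replicate 2, were incomplete. Of these, 2 and 4 joined the last 2 exons. Cenpf, with 11130 bases, and Cenpe, with 7910, had no known read at all. The 1 read of Cenpe was a full-splice new in catalog read of 24 exons, not an incomplete one. Ccnd2, with 6330 bases, had 62.4% known reads, above the median of 35.8% for genes of 6000 to 8000 bases. Across the 38 members, Spearman's rho of length with mean CPM was -0.30, and across the 35 with at least 10 reads it was -0.34 with the known share. The genes share libraries and depth and are not replicates, so these values describe the list.

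**Figure D4:**
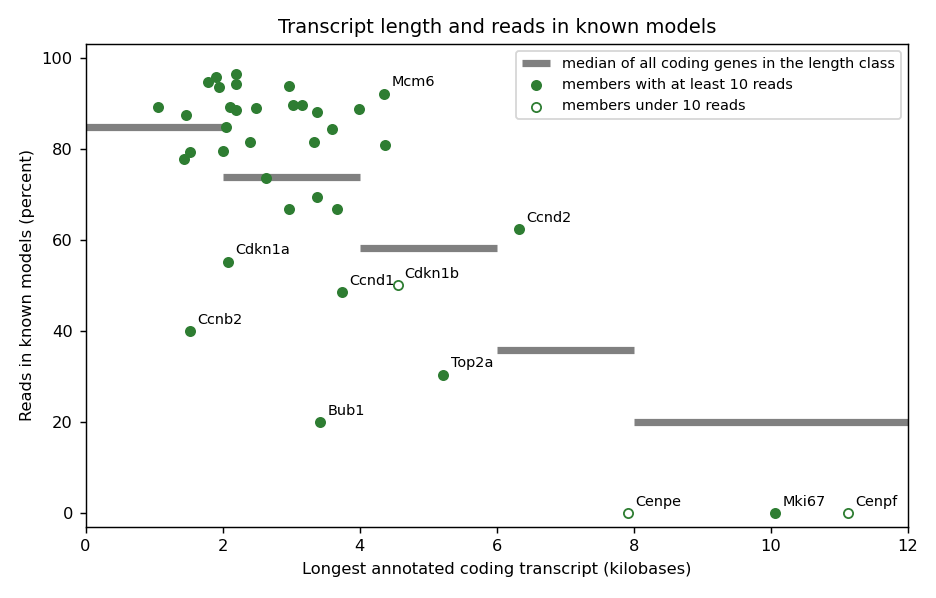
Known reads in percent, both libraries together, against the longest annotated coding transcript in kilobases, for the members (green, open below 10 reads) with the median of all coding genes in each length class (grey bars). Mki67, Cenpe and Cenpf lie at 0, while Ccnb2, Bub1 and Cdkn1a lie under the median of genes of their length.

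Reads could also come from near-identical copies or overlapping genes. Of 52 annotated pseudogenes closest to a member, 4 had reads, 22 in replicate 1 and 28 in replicate 2. Nearly all were on Gm11223, a copy of Stmn1 with 99.8% identity over 450 bases, which had 17 and 26 reads against 34 and 49 for Stmn1, so the level of Stmn1 is uncertain. Opposite-strand genes overlapped several members. Mcm7 lies opposite Cops6 and Ap4m1, with 311 and 325 reads, Cdk4 opposite Tspan31, with 98 and 115, and Ccnd2 opposite antisense transcripts with 66 and 115 reads, in replicates 1 and 2. Models on both strands were listed, and reads on opposite strands may not be fully separated in these counts.

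The promoters of the members were read from RefSeq (GRCm38.p6), from 250 bases before to 50 bases after each annotated start. Of the 38 members 32 matched, with 35 promoters (not Ccnd1, Ccnd2, Ccna2, Mcm4, Aurkb and Stmn1), and 32851 promoters of all genes served as background. Motifs were searched on both strands: CCAAT, bound by NF-Y; TTTGAA, a form of the cell cycle homology region of mitotic genes; TTTAAA and, as a further form of that region, TTCGAA; TTTCCCGC, a form of the E2F site; and, as another form of that site, TTTGGCGC. No motif contains another. CCAAT was found in 15 of 16 promoters of mitotic members (93.8%), in 9 of 11 of replication and nucleotide members (81.8%) and in 3 of 8 of G1 members and inhibitors (37.5%), against 37.4% of all promoters. A homology region form was found in all 16 mitotic promoters, in 5 of 11 of the replication set (45.5%) and in 2 of 8 of the G1 set (25.0%), against 28.8% of all. TTTGAA alone was in 12 of 16 mitotic promoters (75.0%), against 17.9% of all. The E2F forms were in 4 of 11 replication promoters (36.4%), 1 of 8 of the G1 set (12.5%) and 0 of 16 mitotic ones, against 1.56% of all. The matches are letters in a window and do not show binding.

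The promoters of Ccnb2 and Mcm6 are printed as examples of these arrangements. Motifs are in capitals, with ATTGG for CCAAT on the other strand. That of Ccnb2, at chr9:70421505-70421804 on the minus strand, holds 3 CCAAT and 2 TTTGAA. That of Mcm6, at chr1:128359656-128359955 on the minus strand, holds 2 CCAAT on the other strand and 2 TTTGGCGC.
Ccnb2: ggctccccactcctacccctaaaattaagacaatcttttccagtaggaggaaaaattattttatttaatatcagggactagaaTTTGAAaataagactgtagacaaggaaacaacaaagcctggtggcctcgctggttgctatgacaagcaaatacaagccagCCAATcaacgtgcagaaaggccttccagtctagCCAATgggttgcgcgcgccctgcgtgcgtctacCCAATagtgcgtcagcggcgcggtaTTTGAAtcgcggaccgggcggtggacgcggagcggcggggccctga
Mcm6: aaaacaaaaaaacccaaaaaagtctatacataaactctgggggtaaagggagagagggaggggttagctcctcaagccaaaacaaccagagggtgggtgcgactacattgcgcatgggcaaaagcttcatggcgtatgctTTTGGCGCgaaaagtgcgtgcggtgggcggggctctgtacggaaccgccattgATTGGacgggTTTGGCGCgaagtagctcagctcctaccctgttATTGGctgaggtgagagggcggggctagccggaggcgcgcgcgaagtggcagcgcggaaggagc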

How the data were processed

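Long-read RNA-seq libraries of adrenal gland were analysed from read counts per transcript model, which the authors deposited as whole numbers with no normalization, in 1 table per library. Per the file headers and the accompanying descriptions, models refer to mm10 and GENCODE M21. The model identifiers in the deposited annotation name TALON, which groups reads by intron chain. For the aligner, tool versions and filters the sources used here give nothing. The exons of each model were read from the deposited annotations.

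For each gene the counts of all its models were added, spike-ins (1.72% and 1.79% of reads in replicates 1 and 2) were left out, and CPM were computed. Reads in unannotated genes stayed in the totals. The members and all gene lists were chosen with earlier results of these data known. All members were named, with the 2 highest genes of each list of other cell cycle genes, every called gene of those lists (1 is not reported here), and every full-splice chain of a member with at least 3 reads. Genes reaching 10 reads over both libraries were tested with an exact binomial test, log2 ratios had 0.5 reads added, and the threshold was an adjusted p of 0.05. Splice forms were tested where each library had 20 or more full-splice reads, and known shares with at least 10 reads in each. Pseudogenes were matched with BLAST 2.17.0 at 80% identity or more over at least 300 bases. The tests were tested on simulated counts that held counting error only. That simulation does not show how they behave where libraries also differ in other ways. The tools were Python 3.11.15, scipy 1.17.1, R 4.3.3 and edgeR 4.0.16, which gave TMM factors as an alternative scale. With 1 library on each side a count model has no residual degrees of freedom, so none was fitted. Other alternatives were median-of-ratios and spike-in scales, known or multi-exon models, annotated totals and other minimums. Reads carry no molecular identifiers in these counts, so intervals and limits cover counting error only.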

Additional observations from a re-analysis of the deposited data

Results flagged for a closer look

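Reads on the strand opposite a member lie outside the counts used for its level. Over Cdkn1b they numbered 63, with 27 in replicate 1 and 36 in replicate 2, whereas Cdkn1b itself had 1 read in each library. There was no control sample, so the value was set against the limit of 3 reads that a count of 0 allows. Antisense models over all members held 48 reads in replicate 1 and 64 in replicate 2, spread over 19 members, and Cdkn1a had 11 and 2 of them. The source of these reads was not tested.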

How the results depend on the processing

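The number of members called between the libraries was 1, and 2 with TMM scaling or median-of-ratios size factors, where Rrm2 joined Ccnd1, with adjusted p of 0.0260 and 0.0491 in the exact binomial test. It was 0 in known models only and 0 in models with more than 1 exon, where 3 members in known models and 5 in multi-exon models had an unadjusted p under 0.05. It stayed at 1 with annotated totals, the spike-in scale, no minimum and a minimum of 20 reads. Over all genes, 1017 were called in the main setting, 880 with TMM scaling and 867 with median-of-ratios size factors. Known models gave 760 calls, models with more than 1 exon 826, annotated totals 994 and the spike-in scale 1145. There were 869 with no minimum and 965 with a minimum of 20 reads. The adjusted p of Ccnd1 ranged over these alternatives between 0.00541 and 0.284. Calls among other cell cycle genes numbered 5. They came to 4 with TMM scaling, median-of-ratios size factors, known models only and models with more than 1 exon, in each of which Orc5 missed the threshold, and to 3 with no minimum, where Orc5 and Cks2 missed it. The median log2 ratio of the members minus that of all genes was -0.33, with a range from -0.42 to -0.29 over all alternatives. The summed level of the members, 1833 CPM, came to 2051 CPM in known models only, 2076 CPM in models with more than 1 exon and 1928 CPM with annotated totals, since these change the total. The median level of a member was 41.0 CPM in known models and 43.0 CPM in models with more than 1 exon. The known share of member reads was 79.7%, and 84.5% in models with more than 1 exon. Levels and shares without replicate 1 or without replicate 2 are the values of the other library, given above. No paired analysis was possible because there is only 1 group. At 70.0 reads, the median of the tested members, ratios between 0.468 and 2.09 would not be called after adjustment.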
